A study of Arabidopsis thaliana with 12 samples.

Results

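The 47 genes described here are the nuclear genes of Arabidopsis thaliana that encode chlorophyll-binding antenna proteins, subunits of photosystems I and II, the RuBisCO small subunits and RuBisCO activase. The rule names the 47 loci and uses no measured value, though it was set with earlier results of these data known. All 47 loci were found among the 33602 genes counted and passed the filter on low counts. They comprised 9 genes of the LHCII antenna, 5 of the minor LHCB antenna, 6 of the LHCI antenna, 12 of photosystem I, 10 of photosystem II, and 5 for RuBisCO (4 small subunit genes and RCA). Levels were measured by mRNA sequencing in whole seedlings aged 6 days, kept in shaken liquid medium with 1% sucrose, with 16 h light and 8 h dark each day. The seedlings of a flask were divided between an isoxaben flask and a DMSO flask. The 4 groups of 3 libraries were ixr1-1 seedlings with 600 nM isoxaben for 1 h, ixr1-1 seedlings with DMSO for 1 h, Col-0 seedlings with 600 nM isoxaben for 1 h, and Col-0 seedlings with DMSO for 1 h. DMSO, a solvent, served as the mock treatment, and isoxaben is a herbicide that blocks cellulose synthesis in growing walls. Col-0 is the wild type, and ixr1-1 is an isoxaben-resistant line in the Col-0 background with a point mutation in CESA3, a catalytic subunit of cellulose synthase. ixr1-1 is a single line, so a difference between the genotypes is one between these seed stocks, whatever its source. The mutation does not show in a count table, so the genotype labels could not be checked on CESA3.

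Light is harvested by LHCII and the minor LHCB proteins around photosystem II and by the LHCI proteins around photosystem I, and the electrons drawn from water drive the reduction of ferredoxin. RuBisCO, built of a plastid-encoded large subunit and nuclear small subunits, fixes carbon dioxide in the stroma, and RuBisCO activase (RCA) frees its sites from inhibitory sugar phosphates. Transcripts of these nuclear genes are among the most abundant in green tissue, rise with light and sink with sugar supply and with signals from damaged plastids.

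Libraries held 8521491 to 20658035 counts, of which the 47 genes took 6.36% to 7.77%. Nothing in the labels ties the 3 libraries of a group to separate cultures, so the tests rest on library-to-library spread that may be technical only. Whole seedlings were sampled, so fewer green cells and less RNA per green cell cannot be told apart. TMM scaling factors ran from 1.005 to 1.04 in ixr1-1 libraries and from 0.966 to 0.993 in Col-0 libraries, so the scaling moves with the genotype. Replicate 2 of Col-0 isoxaben stood apart for these genes: it was the highest library of its group for 46 of the 47. Replicate 3 of ixr1-1 DMSO was the lowest of its group for 38 of them. Counts of calls, summed levels, medians and the share of LHCB1.3 are given below with and without these libraries.

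The promoters of the 4 RuBisCO small subunit genes are shown because those genes differed in how far they moved between the genotypes. Each line gives the 250 bases before the gene start of the files, 5′ to 3′ on the gene's strand, with bases from TAIR10.1. Capitals mark the G-box CACGTG, the I-box GATAAG, the CCAAT box and the CCA1-binding letters AAAAATCT, read on either strand, so that CTTATC is an I-box on the other strand. RBCS1A lies on the minus strand of chromosome 1 and its promoter is chr1:25049425-25049674. The other 3 small subunit genes lie next to each other on the minus strand of chromosome 5, with promoters chr5:15385248-15385497 for RBCS1B, chr5:15382036-15382285 for RBCS2B and chr5:15378417-15378666 for RBCS3B.
RBCS1A: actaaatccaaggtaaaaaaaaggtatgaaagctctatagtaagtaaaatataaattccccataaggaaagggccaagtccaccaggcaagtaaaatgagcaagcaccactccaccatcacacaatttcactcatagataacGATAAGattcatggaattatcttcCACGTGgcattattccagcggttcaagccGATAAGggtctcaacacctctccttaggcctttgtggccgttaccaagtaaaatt
RBCS2B: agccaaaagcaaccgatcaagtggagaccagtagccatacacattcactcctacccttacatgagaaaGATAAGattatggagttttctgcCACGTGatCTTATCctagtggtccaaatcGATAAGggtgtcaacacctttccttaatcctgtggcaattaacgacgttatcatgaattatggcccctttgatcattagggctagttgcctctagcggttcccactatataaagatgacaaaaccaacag
RBCS3B: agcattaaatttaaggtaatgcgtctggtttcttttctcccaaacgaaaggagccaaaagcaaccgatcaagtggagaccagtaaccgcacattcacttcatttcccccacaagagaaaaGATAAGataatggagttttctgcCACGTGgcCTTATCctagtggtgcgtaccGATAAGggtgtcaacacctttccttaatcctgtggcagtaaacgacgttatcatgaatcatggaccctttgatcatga
RBCS1B: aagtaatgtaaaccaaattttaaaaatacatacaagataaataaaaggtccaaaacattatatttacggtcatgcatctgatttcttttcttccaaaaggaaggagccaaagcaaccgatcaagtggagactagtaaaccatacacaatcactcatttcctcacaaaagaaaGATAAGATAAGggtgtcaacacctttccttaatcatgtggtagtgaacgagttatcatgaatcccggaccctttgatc
RBCS1A, RBCS2B and RBCS3B each held a G-box with an I-box on either side of it, at 84, 159 and 107 bases before the gene start for the G-box. RBCS1B held no G-box in this window and 2 overlapping I-boxes at 78 and 73 bases. None of the 4 held a CCAAT box. With RefSeq gene starts, an alternative added after seeing the data, 1 of the 4 held a G-box, 1 an I-box and 2 a CCAAT box. What the 4 windows hold thus depends on the gene start, and a link to the levels was not tested.

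A pair of neighbouring LHCB1 genes is shown for the same reason. LHCB1.3 lies on the plus strand with its promoter at chr1:10477755-10478004, and LHCB1.1 on the minus strand with its promoter at chr1:10475960-10476209, so that they are read away from each other.
LHCB1.3: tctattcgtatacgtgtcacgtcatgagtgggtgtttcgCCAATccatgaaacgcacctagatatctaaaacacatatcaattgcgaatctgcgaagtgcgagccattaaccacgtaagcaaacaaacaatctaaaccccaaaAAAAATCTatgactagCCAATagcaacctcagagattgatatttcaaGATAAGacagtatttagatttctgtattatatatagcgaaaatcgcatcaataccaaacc
LHCB1.1: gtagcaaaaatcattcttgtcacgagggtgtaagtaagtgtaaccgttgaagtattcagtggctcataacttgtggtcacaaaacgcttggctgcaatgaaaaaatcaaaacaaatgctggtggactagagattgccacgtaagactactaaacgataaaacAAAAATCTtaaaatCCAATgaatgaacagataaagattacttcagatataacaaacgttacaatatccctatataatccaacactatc
LHCB1.3 held 2 CCAAT boxes, the CCA1-binding letters and an I-box. LHCB1.1 held 1 CCAAT box and the CCA1-binding letters, and no I-box. LHCB1.4, which like LHCB1.1 was not called between the genotypes, held an I-box, 2 CCAAT boxes and the CCA1-binding letters at 2 places. These windows too were cut at the gene start of the files, and a link to the levels was not tested.

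Among the 47 promoters, 21 held the G-box (44.7%), against 7.73% of the promoters of 26711 protein-coding genes cut in the same way. The I-box was in 24 promoters (51.1%, against 12.8% of all), and the CCAAT box in 35 (74.5%, against 45.9%). The CCA1-binding letters were in 8 (17.0%, against 6.58%), while the evening element AAAATATCT was in 0, against 2.3% of all. The evening element and the CCA1-binding letters share ATCT at their end, and no overlap could arise since the evening element was not found. The complexes differed in what they held. The CCAAT box was in all 9 LHCII and all 5 minor LHCB promoters, and the G-box was in 1 of the 9 LHCII promoters. For photosystem II, 7 of 10 promoters held the G-box, and for RuBisCO 4 of 5, RCA among them. These letters are a description of the windows and not of binding. The gene start mattered. With RefSeq gene starts, chosen after seeing the data, fewer members held the G-box, the I-box, the CCA1-binding letters and the CCAAT box. The G-box count was then 9 (19.1%, against 6.58% of all), the I-box count 11 (23.4%, against 12.2%) and the CCA1-binding count 5 (10.6%, against 6.74%). The G-box was in 2 of 10 photosystem II and 1 of 5 RuBisCO promoters, so its high counts in these complexes rested on the gene start. The CCAAT count was 30 (63.8%, against 46.1%), and the evening element was in 1 promoter (2.13%, against 2.4%). The CCAAT box was still in all 9 LHCII promoters and in 4 of 5 minor LHCB promoters. In photosystem II it was in 2 of 10 in place of 8, and in RuBisCO in 3 of 5 in place of 1.

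Levels per length were compared as TPM, computed from the counts and the gene lengths in the files. RBCS1A had the highest level of all genes, with a mean of 16300 TPM over the 12 libraries (range 13070 to 18160). LHCB1.3 came next with 7338 TPM, then RBCS3B with 4096 TPM, LHCB1.5 with 3933 TPM and RCA with 3793 TPM, which made the first 5 ranks of all genes members of the set. In the minor antenna LHCB5 (CP26) led with 2051 TPM, in LHCI it was LHCA4 with 2737 TPM. PSAD1, a stromal subunit that docks ferredoxin, led photosystem I with 1427 TPM. PSBO1, the manganese-stabilising protein of the oxygen-evolving complex, led photosystem II with 2551 TPM. LHCB1.5 and RCA had overlapping ranges over the libraries, as did most neighbours further down the order.

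**Figure D1:**
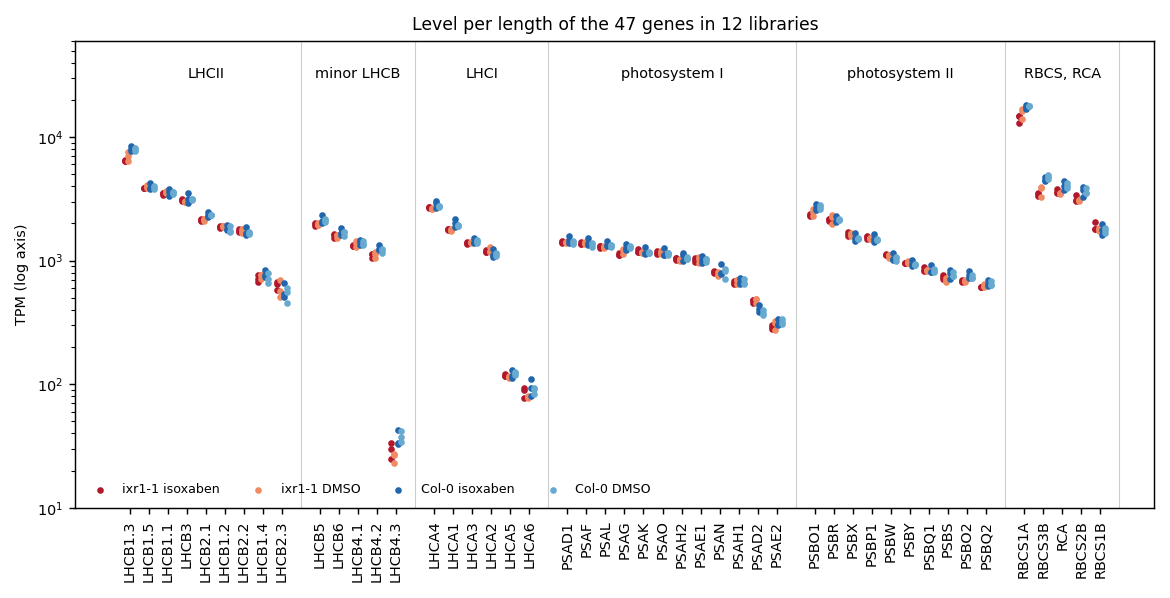
Level per length (TPM, log axis) of each of the 47 genes in each of 12 libraries, by complex and in order of the mean, coloured by group. RBCS1A lies on top at 13070 to 18160 TPM, and LHCB4.3, LHCA6 and LHCA5 lie well below the rest, with means of 32.3, 87.4 and 118.5 TPM.

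LHCB4.3, an isoform of the minor antenna protein CP29, had the lowest level, with a mean of 32.3 TPM, while its paralogs LHCB4.1 and LHCB4.2 had 1371 and 1174 TPM. LHCA6 and LHCA5, the minor LHCI proteins that link photosystem I to the NADH dehydrogenase-like complex, had 87.4 and 118.5 TPM. The remaining 44 genes averaged at least 307.0 TPM, which is the mean of PSAE2. LHCB1.1 to LHCB1.5, LHCB2.1, LHCB2.2, LHCA2, RBCS1B, RBCS2B and RBCS3B share stretches of sequence with a copy. From 68.1% (RBCS1B and LHCB2.2) to 87.1% (LHCB1.2) of their windows of 50 bases within exons were unique in the genome. The counting can thus have moved or lost reads between copies. RBCS1A and the other members had no shared window. Exons of 9 members overlapped those of a gene on the opposite strand, by up to 40.0% of the exon length for PSAH1, 16.4% for LHCB3 and at most 10.4% for the rest. Whether the authors counted by strand is not stated in the labels, so reads of such pairs cannot be told apart.

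Isoxaben for 1 h moved none of the 47 genes past the threshold in ixr1-1. By edgeR with Benjamini-Hochberg adjustment over 20379 genes, 0 members were called at an adjusted p under 0.05, 1 at an unadjusted p under 0.05, and 0 by DESeq2. The background was also empty, at 0% of all genes called. Libraries did not overlap for 1 member, LHCB2.1, which was lower with isoxaben, where 3.89% of all genes were lower and 4.3% higher without overlap. Log2 fold changes of the members ran from -0.18 to 0.18, with a median of -0.03, and 35 of the 47 were below 0. RBCS1A, the RuBisCO small subunit gene with the most transcripts, was the nearest to the threshold. It had 10411, 8908 and 10261 CPM (counts scaled to a common library total, with TMM factors) in ixr1-1 isoxaben libraries, against 11725, 11903 and 9771 CPM in ixr1-1 DMSO libraries. The groups overlapped through replicate 3 of ixr1-1 DMSO, and the log2 fold change was -0.18 ± 0.08 (SE, adjusted p = 1, unadjusted p = 0.0487). LHCB1.3, the LHCII gene with the highest level, had 4628, 4492 and 4508 CPM with isoxaben, against 5222, 5402 and 4525 CPM with DMSO in ixr1-1. The same DMSO library fell among the isoxaben ones, and the log2 fold change was -0.15 ± 0.08 (adjusted p = 1).

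Isoxaben moved none of the 47 past the threshold in Col-0 either, where 0.78% of all genes were called (0.613% higher and 0.167% lower). Nor was there a member whose libraries did not overlap, against 6.86% of all genes higher and 5.97% lower without overlap. There 0 members were called by edgeR, 0 at an unadjusted p under 0.05 and 0 by DESeq2. Log2 fold changes ran from -0.09 to 0.10 with a median of 0.01, and 32 of the 47 were above 0. PSAD2, the second gene for the ferredoxin-docking subunit of photosystem I, had 243.6, 284.0 and 253.3 CPM with isoxaben, against 255.0, 243.3 and 232.3 CPM with DMSO in Col-0. The groups overlapped, and the log2 fold change was 0.10 ± 0.07 (adjusted p = 0.963). LHCB1.4, an LHCII gene of low level within its family, had 601.4, 562.7 and 517.4 CPM with isoxaben, against 577.7, 477.3 and 515.6 CPM with DMSO in Col-0. Its groups overlapped too, with a log2 fold change of 0.10 ± 0.08 (adjusted p = 0.999).

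These results bound the response rather than show that there was none. The 95% intervals of single members reached from -0.35 to 0.49 on the log2 scale in ixr1-1 and from -0.35 to 0.38 in Col-0. The ends were set by RBCS1A and LHCB4.3 in ixr1-1, and by LHCB4.3 and LHCB2.3 in Col-0. The median standard error was 0.07 in both genotypes. The isoxaben effect was also compared between the genotypes. No member differed by edgeR in the interaction (0 called, 0 at an unadjusted p under 0.05, 0 by DESeq2), where 0.314% of all genes were called (0.0589% higher and 0.255% lower). In ixr1-1, LHCB1.4 had 528.8, 473.9 and 462.6 CPM with isoxaben, against 545.1, 531.2 and 483.3 CPM with DMSO. LHCB1.4 and PSAD2 had the smallest unadjusted p, with differences of -0.19 ± 0.12 and -0.14 ± 0.10 in log2 fold change, ixr1-1 minus Col-0 (adjusted p = 1 for each).

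Some of these genes were called between ixr1-1 and Col-0, with modest fold changes. In isoxaben, 10 of the 47 were lower in ixr1-1 and 0 higher by edgeR (adjusted p under 0.05), where 12.8% of all genes were called (5.85% lower and 6.92% higher). In DMSO, 6 were lower in ixr1-1 and 1 was higher, where 17.2% of all genes were called (7.42% lower and 9.79% higher). Among the 2081 genes with an average of at least 100 CPM, a comparison added after seeing the data, 16.8% were lower and 4.52% higher in isoxaben, and 19.8% were lower and 7.16% higher in DMSO. Of the 44 members above that level, 10 were called lower in isoxaben, and 5 lower and 1 higher in DMSO. Read against genes of at least 100 CPM, these counts lie near the background. That set only has a floor and was not matched in level to the members, of which RBCS1A averaged 11740 CPM and LHCB1.3 5384 CPM. The median log2 fold change of the 47 was -0.13 in isoxaben, against -0.08 over genes of at least 100 CPM and 0.00348 over all genes. In DMSO it was -0.09, against -0.08 over genes of at least 100 CPM and -0.00104 over all genes. Libraries of the genotypes did not overlap and ixr1-1 was lower for 22 members in isoxaben, where this held for 14.8% of all genes and for 36.4% of those of at least 100 CPM. No member was higher without overlap in isoxaben, against 15.8% of all genes and 9.56% of those of at least 100 CPM. In DMSO ixr1-1 was lower without overlap for 24 members and higher for 1, where it was 16.1% and 17.6% of all genes, and 34.3% and 10.9% of those of at least 100 CPM. Of the 44 members above that level, 21 were lower without overlap under each treatment. The median in isoxaben rested on 1 library: without replicate 2 of Col-0 isoxaben it was -0.06 for the members and -0.08 for genes of at least 100 CPM. Without replicate 3 of ixr1-1 DMSO the median in DMSO was -0.05 for the members and -0.08 for genes of at least 100 CPM. With each of these libraries left out in its comparison, a choice made after seeing the data, 5 members were higher without overlap in isoxaben and 5 in DMSO, where 12.2% and 14.5% of the genes of at least 100 CPM were. The members lower without overlap then stayed at 22 in isoxaben and 24 in DMSO, where 42.3% and 41.4% of the genes of at least 100 CPM were lower. The 2 comparisons share no library, but they are not independent repeats. They share the seed stocks, flasks that were divided between the treatments, and a common estimate of the spread. The 4 genes called lower in both, LHCB1.3, RBCS1A, RBCS2B and RBCS3B, are 40% of the isoxaben list and 66.7% of the DMSO list. The like share over all genes was not computed.

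**Figure D2:**
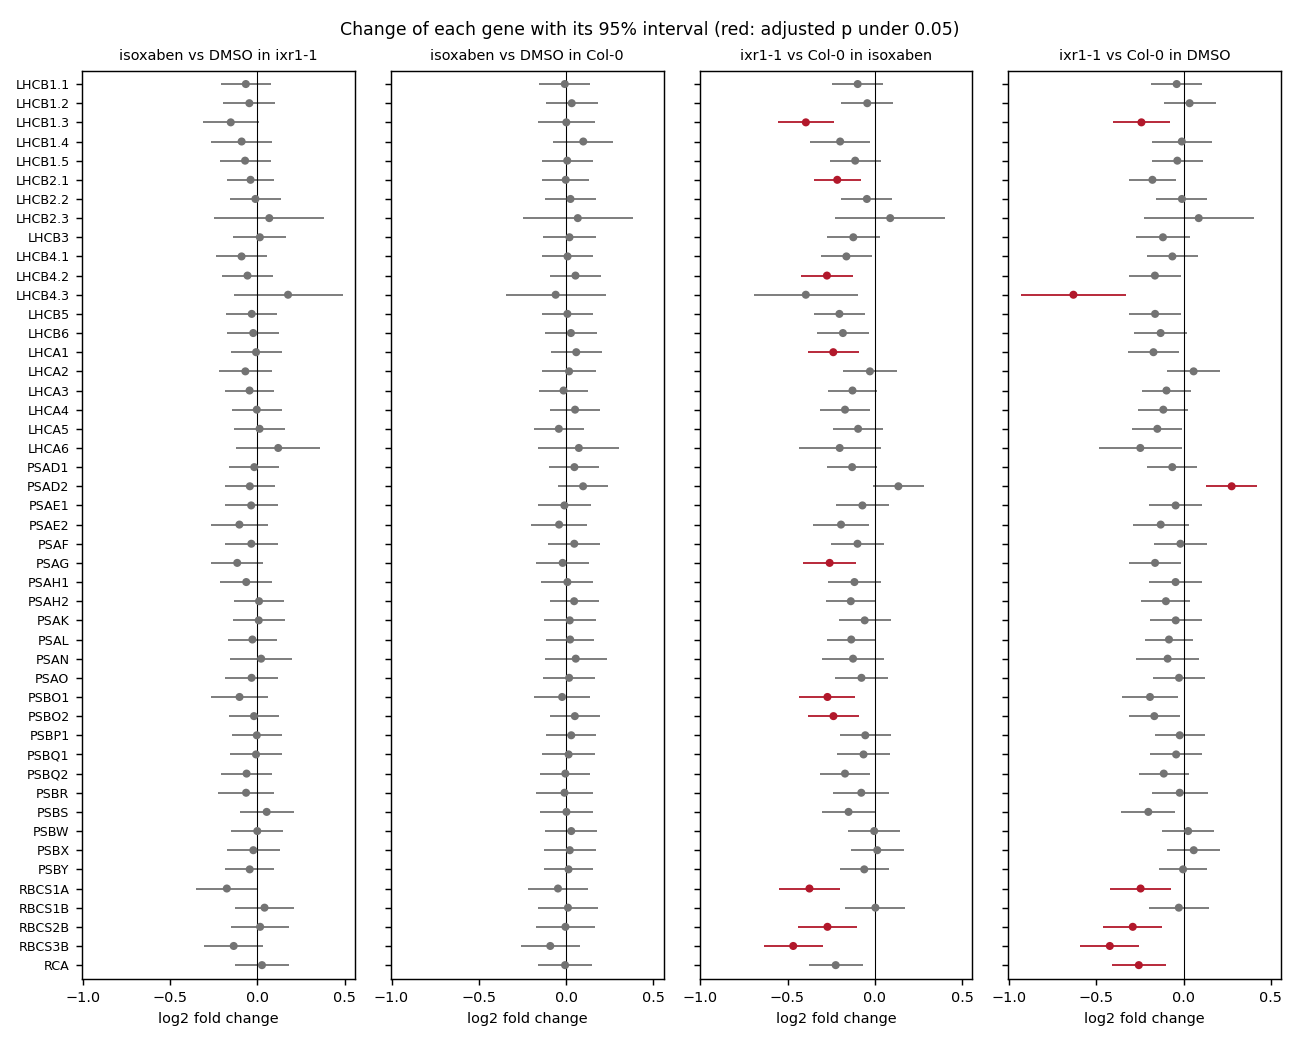
Log2 fold change of each of the 47 genes with its 95% interval in isoxaben against DMSO within ixr1-1 and Col-0, and in ixr1-1 against Col-0 within isoxaben and DMSO (red, adjusted p under 0.05). No gene is red in the 2 treatment panels; 10 genes are red on the left side in isoxaben, and 6 on the left and PSAD2 on the right in DMSO.

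Summed over the 5 RuBisCO genes, the level was 20512, 18711 and 20444 CPM in ixr1-1 isoxaben libraries, against 23450, 26840 and 24382 CPM in Col-0 isoxaben libraries. In DMSO it was 22072, 22178 and 19516 CPM in ixr1-1, against 25447, 25705 and 25473 CPM in Col-0. Every ixr1-1 library was below every Col-0 library under both treatments, and the ratio of the means was 0.799 in isoxaben and 0.832 in DMSO. The LHCII sum had ratios of 0.878 and 0.927, the minor LHCB sum 0.869 and 0.91, and the LHCI sum 0.897 and 0.931, all without overlap of the genotypes. The photosystem sums stood nearer to 1. For photosystem I the ratio was 0.925 in isoxaben and 0.962 in DMSO, where the libraries overlapped and the DMSO ratio became 1 when libraries were scaled by their size alone. For photosystem II it was 0.914 in isoxaben and 0.943 in DMSO, with overlap in DMSO. Without replicate 2 of Col-0 isoxaben the isoxaben ratios were nearer to 1, at 0.832 for RuBisCO, 0.917 for LHCII, 0.907 for the minor LHCB, 0.94 for LHCI, 0.969 for photosystem I and 0.959 for photosystem II. Without replicate 3 of ixr1-1 DMSO the DMSO ratio was 0.866 for RuBisCO and 0.924 to 0.985 for the other sums. The RuBisCO ratios were the lowest of the 6 under both treatments, a description that was not tested.

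**Figure D3:**
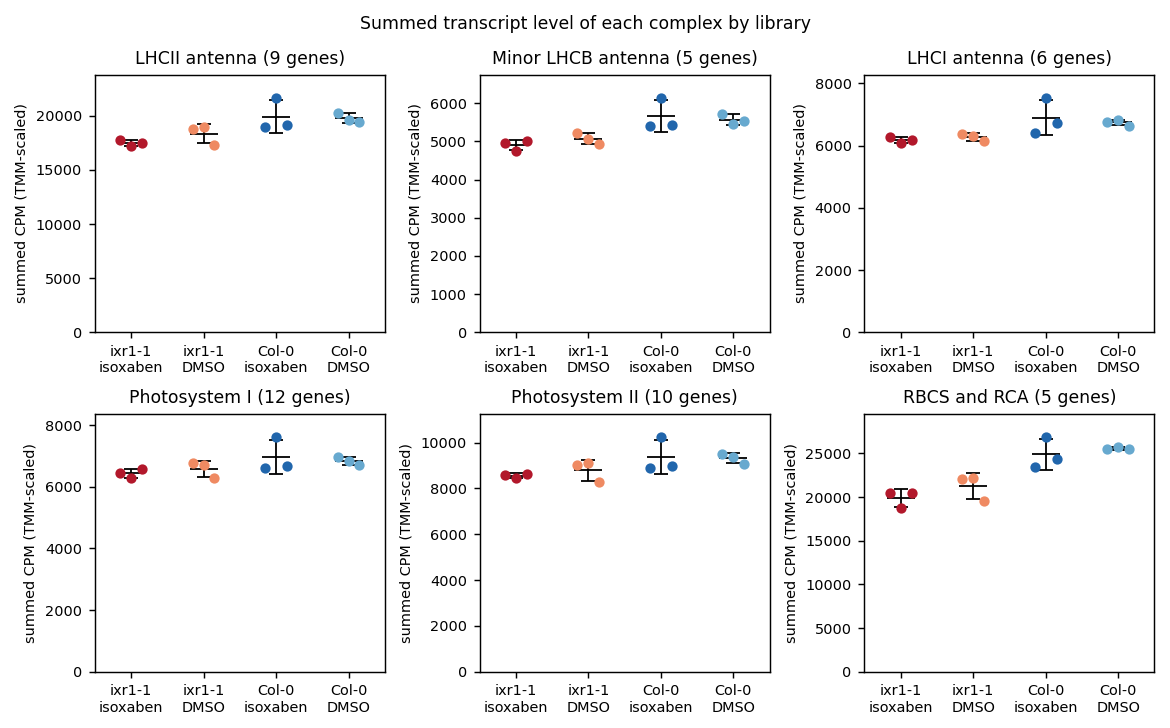
Summed TMM-scaled CPM of the genes of each complex in each library by group, with the mean and SD (n = 3). Replicate 2 of Col-0 isoxaben is the top point in each panel, and the RBCS and RCA panel shows the widest gap, with ixr1-1 at 18711 to 22178 CPM and Col-0 at 23450 to 26840 CPM.

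RBCS3B (AT5G38410, chr5:15377173-15378416), a RuBisCO small subunit gene, showed the largest fall in isoxaben. It had 2419, 2207 and 2348 CPM in ixr1-1 isoxaben libraries, against 3087, 3431 and 3124 CPM in Col-0 isoxaben libraries. In DMSO it had 2722, 2720 and 2220 CPM in ixr1-1, against 3448, 3288 and 3532 CPM in Col-0. No ixr1-1 library reached a Col-0 library under the same treatment. Its log2 fold change was -0.47 ± 0.08 in isoxaben (edgeR adjusted p = 0.000927) and -0.42 ± 0.08 in DMSO (adjusted p = 0.00119). Both calls held under each of 19 alternative settings, where the log2 fold change ranged from -0.50 to -0.40 in isoxaben and from -0.47 to -0.33 in DMSO. With 75.5% of its 50-base windows unique, the level of RBCS3B may include or lack reads of RBCS1B and RBCS2B.

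RBCS1A (AT1G67090, chr1:25048158-25049424), which supplies most small subunit transcripts, averaged 9860 ± 828 CPM in ixr1-1 isoxaben and 12782 ± 652 CPM in Col-0 isoxaben (SD, n = 3 each). In DMSO it averaged 11133 ± 1183 CPM in ixr1-1 and 13202 ± 65.6 CPM in Col-0. In Col-0 DMSO the 3 libraries had 13233, 13247 and 13127 CPM, all above the 3 of ixr1-1 DMSO. For RBCS1A the log2 fold change was -0.37 ± 0.08 in isoxaben (adjusted p = 0.00608) and -0.25 ± 0.08 in DMSO (adjusted p = 0.0479). The isoxaben call held under all 19 alternative settings. The DMSO call ended under 10 of 19, and without replicate 3 of ixr1-1 DMSO the log2 fold change was -0.16 (adjusted p = 0.209).

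RBCS2B (AT5G38420, chr5:15380945-15382035) had 1848, 1727 and 1976 CPM in ixr1-1 isoxaben libraries, against 1978, 2470 and 2253 CPM in Col-0 isoxaben libraries. In DMSO it had 1882, 1793 and 1818 CPM in ixr1-1, against 2169, 2186 and 2363 CPM in Col-0. The gap was clear in DMSO, while in isoxaben replicate 3 of ixr1-1 and replicate 1 of Col-0 nearly met. The log2 fold change was -0.27 ± 0.08 in isoxaben (adjusted p = 0.0314) and -0.29 ± 0.08 in DMSO (adjusted p = 0.0161). The isoxaben call ended under 7 of 19 settings and the DMSO call under 2.

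RBCS1B (AT5G38430, chr5:15384117-15385247), the fourth small subunit gene, had 996.0, 975.9 and 1124 CPM in ixr1-1 isoxaben libraries, against 914.5, 1164 and 1010 CPM in Col-0 isoxaben libraries. In DMSO it had 989.1, 1012 and 1009 CPM in ixr1-1, against 977.0, 1030 and 1060 CPM in Col-0. The genotypes overlapped throughout. The log2 fold change was 0.0033 in isoxaben with a 95% interval from -0.17 to 0.17 (adjusted p = 0.99), and -0.03 in DMSO with an interval from -0.20 to 0.14 (adjusted p = 0.87). RBCS1B had 68.1% unique windows, so its level is uncertain. Its share of the summed TPM of the small subunit genes was 8.32% ± 0.52 in ixr1-1 isoxaben and 6.50% ± 0.39 in Col-0 isoxaben, and 7.44% ± 0.71 in ixr1-1 DMSO and 6.27% ± 0.22 in Col-0 DMSO (SD, n = 3 each). RBCS1A held 62.5% to 64.6% of that sum in the group means and RBCS3B 15.2% in both ixr1-1 groups, against 16.5% in Col-0 isoxaben and 17.0% in Col-0 DMSO.

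RCA (AT2G39730, chr2:16570746-16573548), which keeps RuBisCO active, had 4837, 4892 and 4735 CPM in ixr1-1 isoxaben libraries, against 5160, 6249 and 5486 CPM in Col-0 isoxaben libraries. In DMSO it had 4754, 4750.4 and 4699.7 CPM in ixr1-1, against 5620.1, 5954 and 5391 CPM in Col-0. The ixr1-1 libraries lay close together and below all of Col-0 under both treatments. The log2 fold change was -0.26 ± 0.07 in DMSO (adjusted p = 0.0213), a call that ended under 6 of 19 settings. In isoxaben it was -0.22 ± 0.07, which missed the threshold (adjusted p = 0.0525).

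**Figure D4:**
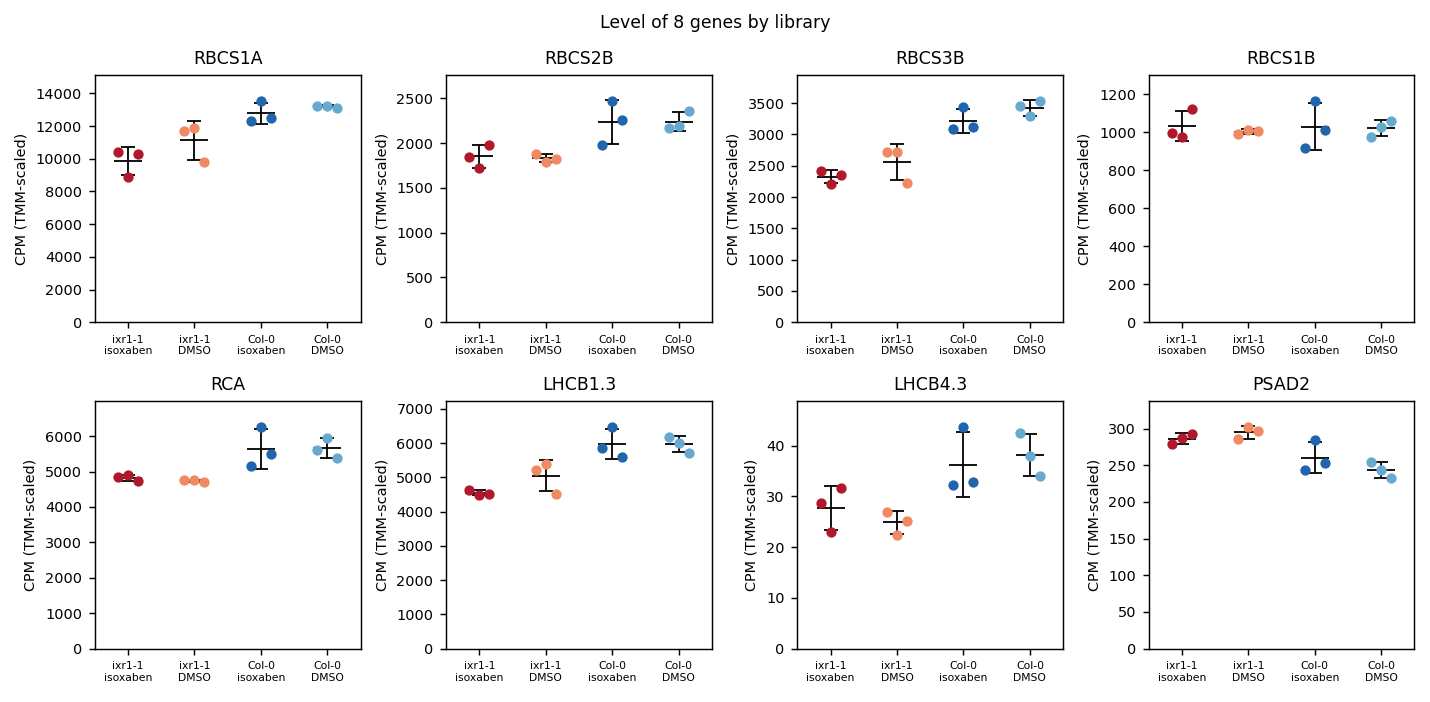
TMM-scaled CPM of 8 genes by library, with the mean and SD of each group (n = 3), ixr1-1 left of Col-0. RBCS1A, RBCS2B, RBCS3B, RCA and LHCB1.3 lie lower in ixr1-1 than in Col-0 under each treatment, RBCS1B overlaps (914.5 to 1164 CPM in all), LHCB4.3 lies between 22.5 and 43.6 CPM, and PSAD2 is higher in ixr1-1 DMSO than in Col-0 DMSO.

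LHCB1.3 (AT1G29930, chr1:10478005-10479048) encodes the main LHCII protein and was the antenna gene with the smallest adjusted p in isoxaben. Its 4628, 4492 and 4508 CPM in ixr1-1 isoxaben libraries stood against 5864, 6457 and 5601 CPM in Col-0 isoxaben libraries. In DMSO it had 5222, 5402 and 4525 CPM in ixr1-1, against 6182, 6004 and 5721 CPM in Col-0. The genotypes did not overlap under either treatment. The log2 fold change was -0.40 ± 0.08 in isoxaben (adjusted p = 0.00244), held under all 19 alternative settings, and -0.24 ± 0.08 in DMSO (adjusted p = 0.0368), ended under 6 of them.

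The other LHCB1 genes moved less. LHCB1.1, LHCB1.2, LHCB1.4 and LHCB1.5 were not called under either treatment, with log2 fold changes of -0.10, -0.04, -0.20 and -0.11 in isoxaben and of -0.04, 0.03, -0.01 and -0.04 in DMSO. LHCB1.3 held 39.2% ± 0.45 of the summed LHCB1 TPM in ixr1-1 isoxaben and 44.2% ± 0.73 in Col-0 isoxaben. In DMSO it held 40.6% ± 1.36 in ixr1-1 and 44.4% ± 1.02 in Col-0 (SD, n = 3 each). The ranges of this share did not overlap between the genotypes. Without replicate 2 of Col-0 isoxaben the Col-0 isoxaben mean was 44.1%, and without replicate 3 of ixr1-1 DMSO the ixr1-1 DMSO mean was 41.3%. LHCB1.1 held 21.3% in ixr1-1 isoxaben and 19.5% in Col-0 isoxaben, and LHCB1.5 23.6% and 21.9%. As 79.8% of the 50-base windows of LHCB1.3 were unique, reads can have been lost or shared, and the shares are descriptions.

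LHCB2.1, of the second LHCII family, was lower in ixr1-1 isoxaben, with 1594, 1589 and 1586 CPM, against 1741, 1976 and 1819 CPM in Col-0 isoxaben. The groups did not overlap, and the log2 fold change was -0.22 ± 0.06 (adjusted p = 0.0337), a call that ended under 9 of 19 settings. In DMSO it had 1633, 1664 and 1603 CPM in ixr1-1, against 1841, 1846 and 1857 CPM in Col-0, without overlap but not called (-0.18 ± 0.06, adjusted p = 0.0645). LHCB2.1 and LHCB2.2 are 95.1% identical over 958 bases, so their split is uncertain. LHCB2.2, LHCB2.3 and LHCB3, which joins LHCII trimers, were not called, with log2 fold changes from -0.12 to 0.09 in the 2 comparisons.

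**Figure D5:**
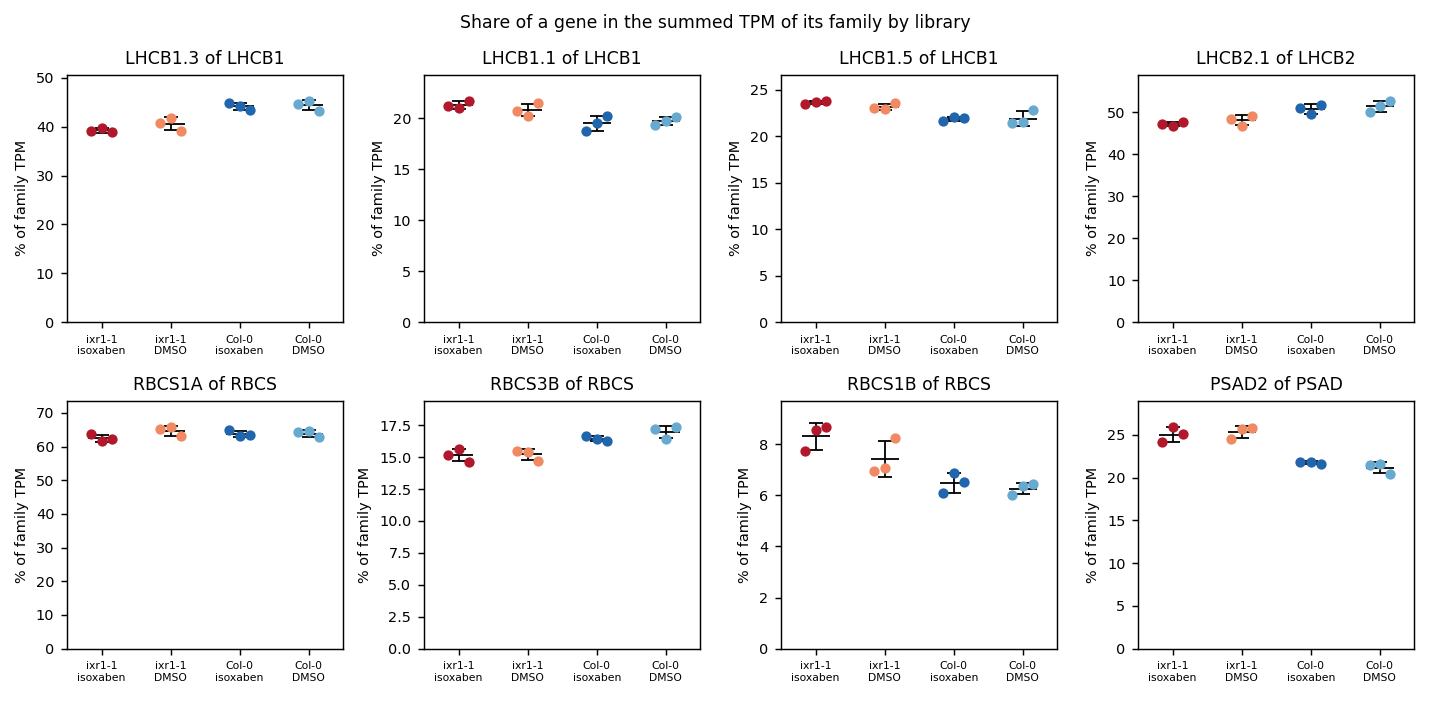
Share of a gene in the summed TPM of its family, in percent, by library with mean and SD (n = 3), ixr1-1 left of Col-0. The share of LHCB1.3 is 38.9% to 41.9% in ixr1-1 and 43.3% to 45.3% in Col-0, and that of PSAD2 is 24.2% to 25.9% in ixr1-1 and 20.4% to 21.9% in Col-0.

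In the minor antenna, all 5 genes had a log2 fold change below 0 in both genotype comparisons. So had 43 of the 47 members in isoxaben and 41 in DMSO, and 1498 and 1496 of the 2081 genes of at least 100 CPM. LHCB4.2, a CP29 gene, had 935.3, 844.9 and 927.0 CPM in ixr1-1 isoxaben libraries, against 1047, 1169 and 1058 CPM in Col-0 isoxaben libraries. The groups were apart, with a log2 fold change of -0.27 ± 0.07 (adjusted p = 0.0155) in isoxaben. In DMSO LHCB4.2 had 976.6, 881.0 and 958.9 CPM in ixr1-1, against 1072.2, 1009.7 and 1072.7 CPM in Col-0 (-0.16 ± 0.07, adjusted p = 0.124). Its isoxaben call ended without replicate 2 of Col-0 isoxaben and without replicate 2 of ixr1-1 isoxaben (adjusted p of up to 0.0741).

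LHCB4.3 (AT2G40100, chr2:16745653-16747400) had the largest fold change of the 47. It had 27.0, 22.5 and 25.1 CPM in ixr1-1 DMSO libraries, against 42.4, 38.0 and 34.1 CPM in Col-0 DMSO libraries. In isoxaben it had 28.6, 23.0 and 31.7 CPM in ixr1-1, against 32.4, 43.6 and 32.8 CPM in Col-0. The groups were apart under both treatments, narrowly so in isoxaben. The log2 fold change was -0.63 ± 0.14 in DMSO (adjusted p = 0.00699), held under all 19 settings with adjusted p of up to 0.0483, and -0.40 ± 0.14 in isoxaben (adjusted p = 0.0789). LHCB5 had 1581, 1613 and 1638 CPM in ixr1-1 isoxaben, against 1729, 2042 and 1791 CPM in Col-0 isoxaben (-0.20 ± 0.07, adjusted p = 0.0652). In DMSO LHCB5 had 1667, 1689 and 1585 CPM in ixr1-1, against 1894, 1851 and 1789 CPM in Col-0 (-0.16 ± 0.07, adjusted p = 0.124). It was called in neither, though the libraries did not overlap in either comparison. LHCB6, the CP24 gene, likewise did not overlap and was not called (-0.18 and -0.13).

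Among the LHCI genes 1 was called. LHCA1, which pairs with LHCA4 in the photosystem I antenna, averaged 1461 ± 46.9 CPM in ixr1-1 isoxaben and 1723 ± 157 CPM in Col-0 isoxaben (SD, n = 3 each). The groups did not overlap, and the log2 fold change was -0.24 ± 0.07 (adjusted p = 0.0301), a call that ended under 8 of 19 settings. LHCA4 had 2347, 2279 and 2296 CPM in ixr1-1 isoxaben, against 2385, 2815 and 2590.1 CPM in Col-0 isoxaben (-0.17 ± 0.07, adjusted p = 0.107). In DMSO LHCA4 had 2346, 2297 and 2296 CPM in ixr1-1, against 2485, 2539 and 2496 CPM in Col-0 (-0.12 ± 0.07, adjusted p = 0.268). Its libraries were apart in both, but the difference did not pass the test. LHCA2, LHCA3, LHCA5 and LHCA6 were not called under either treatment.

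In photosystem I, PSAG was called lower in isoxaben and PSAD2 higher in DMSO. PSAG (chr1:20802670-20803449), a small membrane subunit on the side of the LHCI belt, had 617.3, 573.2 and 595.0 CPM in ixr1-1 isoxaben libraries, against 699.8, 770.6 and 665.6 CPM in Col-0 isoxaben libraries. The groups were apart, and the log2 fold change was -0.26 ± 0.07 (adjusted p = 0.0225), a call that ended under 4 of 19 settings. In DMSO PSAG had 669.5, 671.3 and 593.3 CPM in ixr1-1, against 732.7, 727.3 and 706.0 CPM in Col-0 (-0.16 ± 0.07, adjusted p = 0.13).

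PSAD2 (AT1G03130, chr1:753307-754198) was the only member called higher in ixr1-1 under TMM scaling. It had 285.1, 301.6 and 297.3 CPM in ixr1-1 DMSO libraries, against 255.0, 243.3 and 232.3 CPM in Col-0 DMSO libraries. The groups were well apart, with a log2 fold change of 0.28 ± 0.07 (adjusted p = 0.00855). Of 19 settings only leaving out replicate 3 of Col-0 DMSO ended the call (adjusted p = 0.0537). In isoxaben PSAD2 had 278.5, 286.4 and 293.1 CPM in ixr1-1, against 243.6, 284.0 and 253.3 CPM in Col-0, which overlapped. Its paralog PSAD1 had 818.2, 768.4 and 820.3 CPM in ixr1-1 isoxaben, against 815.2, 954.2 and 863.8 CPM in Col-0 isoxaben (-0.13 ± 0.07, adjusted p = 0.234). In DMSO PSAD1 had 821.2, 814.7 and 801.1 CPM in ixr1-1, against 873.0, 827.2 and 848.3 CPM in Col-0 (-0.06 ± 0.07, adjusted p = 0.576). PSAD2 thus held 25.0% ± 0.86 of the PSAD transcripts per length in ixr1-1 isoxaben and 21.7% ± 0.17 in Col-0 isoxaben. In DMSO it held 25.4% ± 0.71 in ixr1-1 and 21.2% ± 0.65 in Col-0 (SD, n = 3 each), without overlap of the genotypes. Neither PSAD gene shared a window. The other 9 photosystem I genes, which include the stromal subunits PSAE1 and PSAE2 and the plastocyanin-docking subunit PSAF, were not called under either treatment.

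In photosystem II the 2 PSBO genes were lower in ixr1-1 isoxaben. PSBO1 (chr5:26568653-26570278) had 2019.5, 1955 and 1959.8 CPM in ixr1-1 isoxaben libraries, against 2347, 2592 and 2224 CPM in Col-0 isoxaben libraries. The groups did not overlap, and the log2 fold change was -0.27 ± 0.08 (adjusted p = 0.0251). PSBO2 had 597.9, 559.3 and 582.3 CPM in ixr1-1 isoxaben, against 630.9, 744.8 and 673.8 CPM in Col-0 isoxaben (-0.24 ± 0.07, adjusted p = 0.0296). The calls ended under 4 and 6 of 19 settings, for both genes also without replicate 2 of Col-0 isoxaben. In DMSO PSBO1 had 2186, 2268 and 1916 CPM in ixr1-1, against 2529, 2434 and 2315 CPM in Col-0. The DMSO log2 fold change was -0.19 ± 0.08 for PSBO1 (adjusted p = 0.0943) and -0.17 ± 0.07 for PSBO2 (adjusted p = 0.106). PSBP1, PSBQ1 and PSBQ2, the other extrinsic proteins of the oxygen-evolving complex, PSBR, PSBS, PSBW, PSBX and PSBY were not called. PSBX and PSBW, small membrane subunits, were at 0.01 and -0.0037 in isoxaben and at 0.06 and 0.03 in DMSO. PSBS, the sensor of excess light, was at -0.15 in isoxaben and -0.20 ± 0.07 in DMSO (adjusted p = 0.0677).

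The number of calls depended on which library was left out, for the members and for all genes. Without replicate 2 of Col-0 isoxaben, 3 of the 10 calls in isoxaben remained, namely LHCB1.3, RBCS1A and RBCS3B, and without replicate 2 of ixr1-1 isoxaben the same 3 remained. Without replicate 1 of ixr1-1 isoxaben 7 were called. Without replicate 3 of Col-0 isoxaben 6 were called, and without replicate 3 of ixr1-1 isoxaben 5. All genes called in isoxaben, 2602 with every library, fell too. They were 1664 without replicate 2 of Col-0 isoxaben and 1549 without replicate 2 of ixr1-1 isoxaben. Without replicate 3 of Col-0 isoxaben they were 1570, and without replicate 3 of ixr1-1 isoxaben 1712. In DMSO, 3 were called without replicate 3 of Col-0, and 4 each without replicates 1 and 2 of Col-0 and without replicate 3 of ixr1-1. All genes called in DMSO were 3509 with every library, and 2281 to 3798 with 1 library left out. When libraries were scaled by size alone, 4 members were lower and 1 higher in isoxaben, and 3 lower and 1 higher in DMSO. That scaling also moved the split of all calls: 24% of those in isoxaben were lower in place of 45.8%, and 25.4% in DMSO in place of 43.1%. The median of all genes then stood at 0.07 in isoxaben and 0.06 in DMSO, and that of the members at -0.06 and -0.03.

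Other genes of photosynthesis were read from lists chosen with earlier results of these data known. Of 16 Calvin-Benson cycle genes, 6 were lower in ixr1-1 in isoxaben and 7 in DMSO, and none was higher. The median log2 fold change of the list was -0.22 in isoxaben and -0.21 in DMSO, against 0.00348 and -0.00104 over all genes. Over genes of at least 100 CPM, a level that 15 of the 16 reached, the median was -0.08 under each treatment and 16.8% and 19.8% were called lower. Counts of the lists that follow are likewise to be read against the level of their genes. Some of those genes lie below 100 CPM, such as PORA, HY5 and VDE. Over all genes, 5.85% were called lower and 6.92% higher in isoxaben, and 7.42% lower and 9.79% higher in DMSO. PRK, which makes the acceptor of carbon dioxide, had 854.9 ± 16.3 CPM in ixr1-1 isoxaben and 1095 ± 144 CPM in Col-0 isoxaben (SD, n = 3 each; -0.36 ± 0.08, adjusted p = 0.00711). In DMSO PRK was at -0.42 ± 0.08 (adjusted p = 0.00122). The aldolase gene FBA2 was at -0.36 ± 0.07 in isoxaben and -0.35 ± 0.07 in DMSO (adjusted p = 0.00244 and 0.00158). FBA1, TKL1 (transketolase) and PGK1 (phosphoglycerate kinase) were also lower in both, by 0.31 to 0.41 on the log2 scale.

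Of 14 chlorophyll synthesis genes, 4 were lower and 2 higher in isoxaben, and 4 lower and 3 higher in DMSO. GUN4, an activator of magnesium chelatase, had 367.4 ± 25.5 CPM in ixr1-1 isoxaben and 487.7 ± 20.4 CPM in Col-0 isoxaben (-0.41 ± 0.07, adjusted p = 0.000854), and was at -0.33 ± 0.07 in DMSO (adjusted p = 0.00237). CAO, which makes chlorophyll b for the antenna, was at -0.30 ± 0.06 in isoxaben (adjusted p = 0.00413) and -0.36 ± 0.06 in DMSO (adjusted p = 0.00057). CRD1, a subunit of the cyclase that forms the fifth ring, was at -0.31 ± 0.07 in both (adjusted p = 0.00538 and 0.00319). CHLG, the chlorophyll synthase, was higher, at 0.29 ± 0.07 in both (adjusted p = 0.00794 and 0.00579).

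Of 10 genes for electron carriers and ATP synthase, 1 was lower under each treatment, FNR2, a ferredoxin-NADP reductase. It had 156.2 ± 0.76 CPM in ixr1-1 isoxaben and 199.9 ± 0.56 CPM in Col-0 isoxaben (-0.36 ± 0.06, adjusted p = 0.00108), and was at -0.35 ± 0.06 in DMSO (adjusted p = 0.000626). Of 14 light and plastid regulators 3 were lower and 1 higher under each treatment. GLK1, a transcription factor that activates antenna and chlorophyll genes, had 183.6 ± 13.1 CPM in ixr1-1 isoxaben and 234.3 ± 23.1 CPM in Col-0 isoxaben (-0.35 ± 0.08, adjusted p = 0.00627). In DMSO GLK1 was at -0.25 ± 0.08 (adjusted p = 0.0348), a call that ended under 6 of 19 settings. The photoreceptor genes CRY1 and PHYA were lower by 0.25 to 0.28 on the log2 scale, and PIF3, a repressor of greening in the dark, was higher by 0.37 in isoxaben and 0.48 in DMSO. The PIF3 call in isoxaben ended under 11 of 19 settings. The PHYA calls ended under 7 settings in isoxaben and 4 in DMSO, and the CRY1 call in DMSO under 1. Of 11 photoprotection genes, 2 were lower and 1 higher in isoxaben, and 3 lower in DMSO. ZEP, zeaxanthin epoxidase, was at -0.40 ± 0.09 in isoxaben (adjusted p = 0.00626) and -0.53 ± 0.09 in DMSO (adjusted p = 0.000409), while ELIP2, a light-induced antenna relative, was higher in isoxaben (0.25 ± 0.08, adjusted p = 0.046), a call that ended under 11 of 19 settings. The isoxaben treatment moved no gene of these 5 lists past the threshold in either genotype. The nearest in ixr1-1 was PORB, a protochlorophyllide oxidoreductase gene, at -0.21 (unadjusted p = 0.0592), and in Col-0 DVR, at 0.12 (unadjusted p = 0.163).

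Markers of other organs moved with the genotype in part. Summed over 11 seed storage and oil body genes, the level was 111.6 to 648.8 CPM in ixr1-1 isoxaben, 219.1 to 716.5 CPM in ixr1-1 DMSO, 1.03 to 2.44 CPM in Col-0 isoxaben and 1.02 to 3.41 CPM in Col-0 DMSO. Of these 11 genes, 9 were higher in ixr1-1 in isoxaben and 10 in DMSO, and the cruciferin gene CRC had 0 counts in both Col-0 groups. CRB, OLEO1 and SESA3 had 0 counts in Col-0 isoxaben. The lowest ixr1-1 sums, 111.6 and 219.1 CPM, were those of the libraries numbered 1. Without both of them, 7 members were lower in isoxaben and 3 lower and 1 higher in DMSO. Leaving out libraries changes the number of calls by itself, and the count over all genes under this setting is not given here. These member counts therefore cannot tell what part the seed transcripts had. The 15 root markers summed to 325.3 to 354.0 CPM in ixr1-1 isoxaben, 317.6 to 339.4 CPM in ixr1-1 DMSO, 327.4 to 354.7 CPM in Col-0 isoxaben and 331.1 to 353.3 CPM in Col-0 DMSO. Those sums overlapped between all groups that were compared, with NRT2.1 lower in ixr1-1 under both treatments. COBL9, a root hair gene, averaged 10.4 CPM in ixr1-1 isoxaben and 6.63 CPM in Col-0 isoxaben (0.65, adjusted p = 0.0135). In DMSO COBL9 averaged 9.87 CPM in ixr1-1 and 12.3 CPM in Col-0 (-0.30, adjusted p = 0.191). In Col-0 it averaged 6.63 CPM with isoxaben and 12.3 CPM with DMSO (-0.91 ± 0.16, adjusted p = 0.00508), and the difference of the isoxaben effect between the genotypes did not pass the test (adjusted p = 0.102). COBL9 was the 1 root marker of 15 called for isoxaben in Col-0. There EXPA7 went the other way, with 8.66 CPM in isoxaben and 7.59 CPM in DMSO. EXPA18 (6.97 and 9.24 CPM) and RHD6 (3.08 and 3.86 CPM) were lower with isoxaben but not called. Between the genotypes in isoxaben, EXPA7 was level, at 8.65 CPM in ixr1-1. The part of the seed transcripts in the differences between the genotypes was not tested.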

How the data were processed

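Raw read counts per gene, deposited as 1 file per library with gene positions and lengths, were made by the authors and carry no normalization. Per the submitters' processing notes, bcl2fastq, FastQC 11.1, STAR 2.4.1 and featureCounts 1.4.6 were used; the genome build, annotation and strand option were not named. Per the labels' protocols, libraries came from a stranded mRNA kit. The 47 genes and the other lists were chosen with earlier results of these data known.

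Counts of the 12 libraries (8521491 to 20658035 in all) were tested with edgeR 4.0.16 in R 4.3.3 (limma 3.58.1): filterByExpr, TMM factors, a quasi-likelihood fit with a term per group, and Benjamini-Hochberg adjustment over the 20379 genes left of 33602, at 0.05. Errors of log2 fold changes are standard errors. The fit was tested on simulated data. No columns had to be set aside and no 2 libraries were duplicates. CPM is TMM-scaled and TPM uses the gene lengths of the files.

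Values per library are given for the top gene of each complex by TPM, and for the called members with the smallest adjusted p, up to 6 per direction and comparison, or, with none called, for the 2 lowest in unadjusted p. Of each other list up to 4 called genes were eligible. The remaining genes with values were named after their values were seen. Alternatives were DESeq2 1.42.0, its size factors, library size alone, no filter, only the groups compared, replicate blocks and leaving out libraries.

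Promoters are the 250 bases before the gene start of the files, read from TAIR10.1 with Python 3.11.15; 97.9% of 120610 exon gaps of the files have splice-site letters on that build. Copies were aligned with blastn 2.17.0.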

Additional observations from a re-analysis of the deposited data

How the results depend on the processing

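Members called for isoxaben or for the interaction stayed at 0 under each alternative run. In isoxaben, members differing between ixr1-1 and Col-0 numbered 10, against 5 with library size alone, 6 with only the groups compared, and 3 to 13 when 1 library was left out; all genes called were 2602, against 1549 to 2756. In DMSO, members numbered 7, against 4 with library size alone, 4 without both ixr1-1 libraries numbered 1, and 3 to 9 with 1 library left out; all genes were 3509, against 2281 to 3798. For isoxaben in Col-0, all genes called were 159, against 243 with only the groups compared and 77 to 193 with 1 library left out; in ixr1-1 they were 0, and 0 to 0 with 1 library left out. The interaction gave 64 genes, against 104 by DESeq2 and 22 to 113 with 1 library left out. Scaling by library size alone put the DMSO ratio of summed levels at 0.95 for minor LHCB, 0.972 for LHCI and 1 for photosystem I, where the direction turned. With RefSeq gene starts the promoter counts were 9 for the G-box, 11 for the I-box, 1 for the evening element and 5 for the CCA1-binding letters. The cause of these shifts was not tested. The members' median standard error of 0.07 on the log2 scale limits the size of change that could be called.

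The labels say that flasks were split between the treatments, not that a replicate number marks a flask: deviations of same-numbered libraries of a genotype correlated at 0.03 to 0.312 over 6 pairs, above 0.1 in 4, and those of other numbers at -0.313 to 0.114. With the replicate block by number, 13 members and 3572 genes (17.5%) were called in isoxaben between the genotypes, and 10 members and 4320 genes (21.2%) in DMSO. There the interaction gave 99 genes, and isoxaben gave 1 gene in ixr1-1. With the block within genotype, isoxaben gave 367 genes in Col-0 and 13 in ixr1-1, and the interaction gave 180.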

Other observations

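The plastid genes for partners of these proteins were also counted, in libraries from a kit that selects polyadenylated RNA, and their counts come from whole libraries that differ in depth. rbcL, the RuBisCO large subunit gene, had 155 to 437 counts in 11 libraries and 1294 counts in replicate 2 of Col-0 DMSO. psbA, a core gene of photosystem II, had 90 to 370 counts in the other libraries and 1208 counts in that one. psaA, a core gene of photosystem I, had 41 to 93 counts in the others and 194 counts there. The nuclear RuBisCO sum of that library, 25705 CPM, lay near the 25447 and 25473 CPM of the other Col-0 DMSO libraries.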
